A study of Arabidopsis thaliana with 6 samples.

Results

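The transposable elements of Arabidopsis thaliana chromosome 3 comprise 6461 entries of the count table, out of 31189 transposable elements (TEs) and 62524 features in all. They were taken as every entry whose name begins with AT3TE, so no measured value entered the choice. In Arabidopsis element names the number after that prefix follows the order along the chromosome. It runs from AT3TE00010 to AT3TE95460 and stands for position, since coordinates were not used here. RNA came from leaves of 28-day-old plants of the accession Col-0, grown under long days. The ddcc plants carry mutations in the DNA methyltransferase genes DRM1, DRM2, CMT2 and CMT3, and the other group was wild type, with 3 polyadenylated RNA libraries each. The labels do not say whether libraries came from separate plants or pools, so p-values measure the spread between these libraries, which may be technical in part.

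TEs are mobile or formerly mobile DNA segments, and in Arabidopsis they are most dense around the centromeres. Most are kept silent by methylated cytosines and by methylation of histone H3 at lysine 9. In the CHG and CHH contexts, where H is any base but G, CMT3 and CMT2 bind methylated histones and copy the mark, whereas DRM2 is guided by small RNAs and DRM1 is its close relative. Methylation in the CG context is maintained by another enzyme, MET1, which is not mutated in ddcc. The comparison asks which chromosome 3 elements give RNA when these 4 genes are mutated.

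Each ddcc library held 17265251 to 18809306 counts, and each wild-type library 15188586 to 17644256. Of the mutated genes, DRM2, CMT2 and CMT3 were called lower in ddcc, with log2 fold changes of −1.14, −0.46 and −1.69 (edgeR, described with the calls), and DRM1 had at most 1 count in any library. Leaf identity was checked with 5 photosynthesis genes, which summed to between 1100348 and 1194757 counts in ddcc and between 1020383 and 1205544 in wild type, with 4 of 5 called lower in ddcc (12.7% of all tested features were). Summed counts of 5 flower genes were 6 to 8 in ddcc and 5 to 12 in wild type, and those of 2 pollen and 3 root genes stayed at or under 3. A list of 23 genes linked to TE silencing, all tested, also held genes that do not promote it, such as ROS1. Of the 23, 3 were higher (13.0%) and 5 lower (21.7%) in ddcc, against 15.5% and 12.7% of all tested features. The 5 lower were AGO4, AGO1, VIM1, IBM1 and ROS1. The median log2 fold change of the 23 genes was −0.05, against −0.003 over all 18498 tested features. ROS1, a DNA demethylase, fell by 5.33 on the log2 scale, and NRPD1, which encodes the main catalytic subunit of RNA polymerase IV, was higher by 1.13. Levels in bulk leaf RNA cannot separate fewer expressing cells from less RNA per cell.

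More chromosome 3 elements gave reads in ddcc than in wild type. At least 1 count was seen for 341, 349 and 344 elements in the ddcc libraries and for 173, 203 and 151 in the wild-type libraries. The groups did not overlap, and the ddcc libraries lay closer to each other. The means were 344.7 ± 4.04 in ddcc and 175.7 ± 26.1 in wild type (SD, n = 3 each), a ratio of 1.96. An exact permutation test, two-sided, returned p 0.1, and 3 libraries against 3 cannot go lower. The number expected at the smallest library total was 324.4 ± 8.81 in ddcc and 169.7 ± 23.1 in wild type, a ratio of 1.91. With at least 10 counts required, 102.3 ± 4.93 elements remained per ddcc library and 41 ± 1 per wild-type library.

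Across all libraries 633 of the 6461 elements (9.80%) had a count, and 5828 had 0 counts everywhere. A count of 0 allows a level of up to 3 counts, which equalled 0.156 to 0.172 CPM (counts per 1e6 of the scaled library total) in ddcc and 0.175 to 0.197 CPM in wild type. Of the 633 elements, 340 were seen in ddcc alone, 106 in wild type alone and 187 in both genotypes. Of the 340, 89 were present in all 3 ddcc libraries, and of the 106, 1 was present in all 3 wild-type libraries. Among the 106, the highest total was 11 counts, and 89 were seen in a single library. Many detections were sparse, since 315 of the 633 elements had only 1 or 2 counts over all 6 libraries.

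The summed counts on chromosome 3 elements were 23431, 22898 and 26945 in ddcc and 10577, 12777 and 5758 in wild type. As a share of all counts this was 0.125%, 0.133% and 0.144% in ddcc, against 0.0599%, 0.0778% and 0.0379% in wild type. Each ddcc share exceeded each wild-type share, and the wild-type libraries differed among themselves by more than the ddcc libraries did. The means were 0.134% ± 0.00982 in ddcc and 0.0586% ± 0.0200 in wild type (SD, n = 3 each), a ratio of 2.28 with an exact permutation p of 0.1. The 95% Wilson interval of the lowest ddcc share was 0.123% to 0.126%, and that of the highest wild-type share was 0.0765% to 0.0792%, and these intervals cover counting error only.

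**Figure D1:**
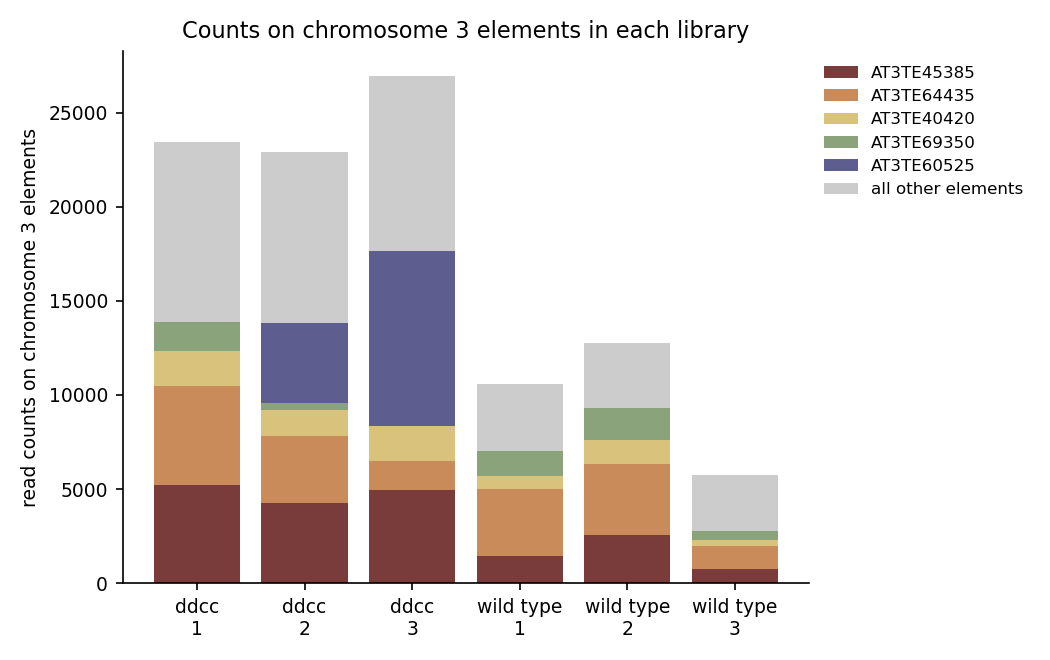
Stacked bars give the read counts on chromosome 3 elements in each of the 3 ddcc and 3 wild-type libraries, with the 5 elements of most counts in colour and all others in grey. AT3TE60525 holds 34.5% of the bar of ddcc replicate 3 and is not visible in ddcc replicate 1 or in wild type, while the grey part is 9066 to 9564 counts in ddcc and 3009 to 3528 in wild type.

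A few elements carried most of these reads. The 5 elements with the most reads in a library held 61.6% to 68.3% of its chromosome 3 TE counts in ddcc and 54.7% to 76.3% in wild type. The elements outside the 5 named in the stacked bars summed to 9564, 9066 and 9303 counts in ddcc and to 3528, 3459 and 3009 in wild type. These sums spread less within a genotype than the full sums did. Without AT3TE60525 the ratio of mean shares was 1.86. Without the 10 elements with the most counts the shares were 0.0384% in ddcc and 0.0137% in wild type, a ratio of 2.81 with a difference of 0.0248 percentage points, against 0.0752 over all elements.

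The part of all TE reads that fell on chromosome 3 overlapped between the genotypes. It was 29.1%, 32.3% and 33.8% in ddcc and 31.1%, 37.5% and 22.2% in wild type. An exact permutation test (two-sided) returned p 0.8. The difference of the means, 1.43 percentage points, turned to −2.92 without AT3TE60525 and to −2.62 without wild-type replicate 3. The ratio of ddcc to wild-type shares was 3.62 on chromosome 1, 2.62 on chromosome 2, 2.28 on chromosome 3, 1.25 on chromosome 4 and 1.83 on chromosome 5. Differences between chromosomes in this ratio were not tested.

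Of the 6461 elements, 87 (1.35%) had enough counts to be tested, 546 were detected but fell below the filter on low counts, and 5828 had no counts. Genes and TEs were fitted together with the quasi-likelihood test of edgeR, and a call is a Benjamini-Hochberg adjusted p under 0.05 over all 18498 tested features. Higher in ddcc were 51 of the 87 elements (58.6%), and 3 (3.45%) were lower. Over all tested features 15.5% were called higher and 12.7% lower, and over the 285 tested TEs of the other chromosomes 57.5% and 7.37%. The share of chromosome 3 elements called higher is thus close to the pooled share of other TEs, and the difference was not tested. The pool is uneven, with 61.6% called higher on chromosome 1, 77.5% on chromosome 2, 44.8% on chromosome 4 and 45.8% on chromosome 5. These shares describe tested elements only. Of the 51, 36 had at most 3 counts in every wild-type library, and 7 more had under 10 in each. These passed the filter only through their ddcc counts, so their higher ddcc level was set by the filter. The other 8 had at least 10 reads in all 6 libraries. Without the filter, 107 of 633 elements were called higher and 8 lower (12.7% and 9.07% of features), while a minimum mean of 50 counts gave 18 of 34 higher (16.4%) and 0 lower (15.0%). The 3 elements called lower were not among those 34, and 0 of the 34 were lower at an unadjusted p under 0.05. DESeq2 called 49 of the 87 elements higher and 3 lower (12.9% and 9.26% of features). In 57 of the 87 elements every ddcc library lay above every wild-type library (22.5% of all tested features), and in 5 every ddcc library lay below (21.0%).

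Elements were also sorted by raw counts alone. An element counts as gained with at least 10 reads in every ddcc library and at most 3 in each wild-type library, as lost in the opposite case, and as expressed in both genotypes with at least 10 reads in all 6 libraries. There were 38 gained elements (0.588% of those listed), 1 lost element and 36 expressed in both. The same limits gave 0.522% gained and 0.0202% lost among listed TEs of the other chromosomes, and 0.134% gained and 0.0160% lost among gene entries. Together the 38 gained elements had 3840, 3339 and 3188 counts in ddcc and 5, 12 and 1 in wild type. Of the 38, 36 were tested and all 36 were called higher. The limits that define a gained element already set the genotypes apart, so these calls add no support. AT3TE51735 and AT3TE52120 met the limits but not the filter, with 20, 21 and 10 counts and 18, 23 and 10 counts in ddcc and 0 in every wild-type library.

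**Figure D2:**
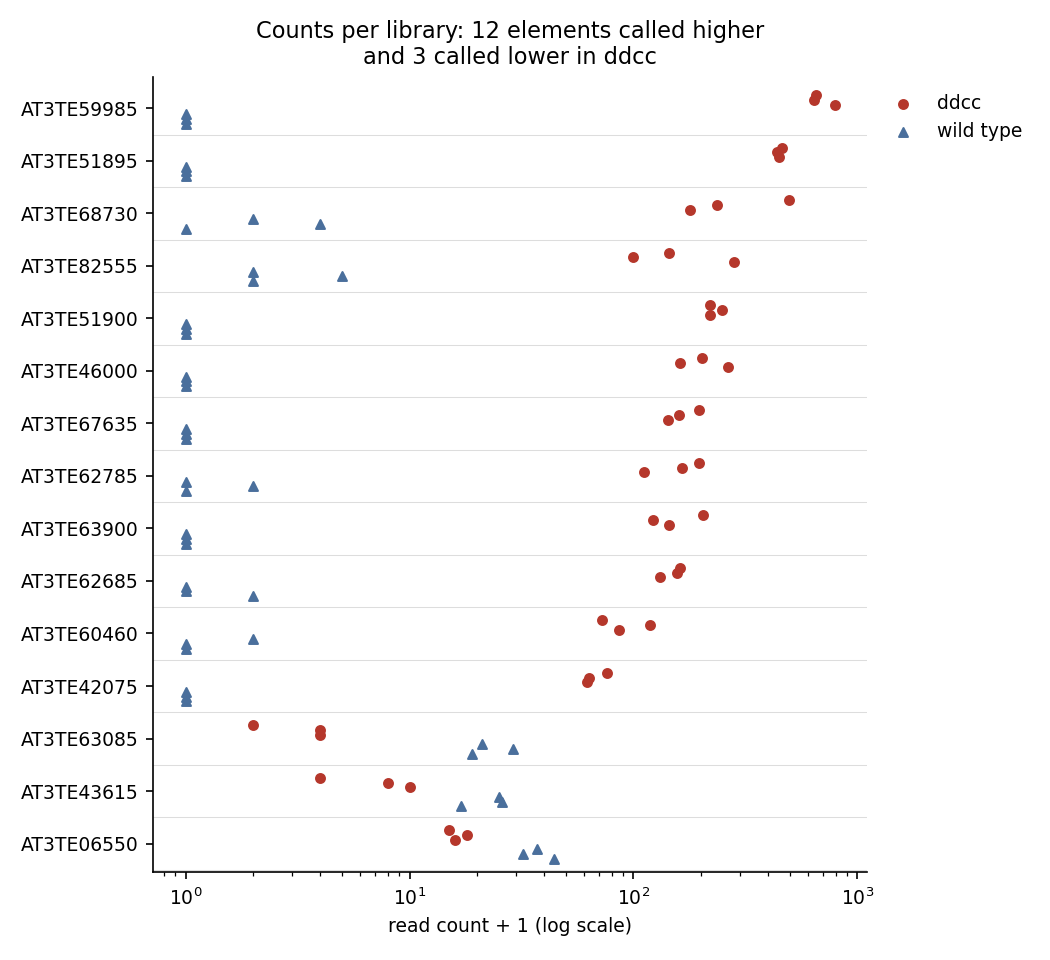
Points are read counts plus 1, on a log axis, of the 12 elements with the largest increase (fitted or lower bound) among those tested and called higher and of the 3 elements called lower, with ddcc libraries as circles and wild-type libraries as triangles. In the upper 12 rows every ddcc count is at least 61 and every wild-type count at most 4, and in the lower 3 rows all ddcc counts lie left of the wild-type counts.

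Several of the elements with the largest lower bounds had no read in wild type. AT3TE59985 had 649, 636 and 791 counts in ddcc and 0, 0 and 0 in wild type, and AT3TE51895 had 458, 435 and 445 in ddcc against 0, 0 and 0 in wild type. With wild type set to 3 counts per library, these levels were at least 202-fold and 130-fold higher in ddcc (edgeR quasi-likelihood, Benjamini-Hochberg adjusted p 4.51e-08 and 1.89e-08). The ddcc libraries agreed closely for AT3TE51895, at 24.2 ± 0.6001 CPM (SD, n = 3), a coefficient of variation of 2.48%. AT3TE51900, the next listed element, had 219, 248 and 218 counts in ddcc and none in wild type, at least 66.9-fold higher (adjusted p 4.09e-07 in the same fit). AT3TE46000 had 202, 160 and 262 counts in ddcc and 0 in each wild-type library, at least 60.5-fold higher.

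AT3TE68730 had 496, 235 and 178 counts in ddcc and 1, 3 and 0 in wild type, at least 87.6-fold higher (adjusted p in edgeR 2.19e-05). Its ddcc counts differed by more than those of AT3TE51895, with replicate 1 the highest. AT3TE67635 had 196, 159 and 141 counts in ddcc and none in wild type, at least 48.2-fold higher. AT3TE62785 had 195, 164 and 110 counts in ddcc and 0, 1 and 0 in wild type, and AT3TE63900 had 204, 121 and 143 in ddcc against 0, 0 and 0 in wild type. AT3TE62685 had 161, 156 and 130 counts in ddcc and 0, 0 and 1 in wild type. These last elements stood at similar bounds, at least 45.7-fold, 45.2-fold and 43.6-fold higher in ddcc. Further down were AT3TE60460 with 71, 118 and 85 counts in ddcc against 1, 0 and 0 in wild type, and AT3TE42075 with 75, 62 and 61 against 0, 0 and 0 in wild type, at least 26.9-fold and 19.2-fold higher.

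Most gained elements were far weaker than these. The mean ddcc level of the 38 ran from 0.666 to 37.5 CPM with a median of 1.90 CPM, and the mean ddcc count was under 30 for 14 elements and at least 100 for 9. For the 36 called, the lower bound ran from 3.59-fold to 202-fold with a median of 10.6-fold. The weakest bound belonged to AT3TE72000, with 15, 11 and 11 counts in ddcc and none in wild type. Elements of one TE family can share near-identical sequence. How reads that match several copies were counted is not given in the sources used here, so a count on 1 element may include reads of another.

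A further 7 elements called higher were between the classes, with over 3 reads in some wild-type library and fewer than 10 in each. They too passed the filter only through their ddcc counts. Their log2 fold changes ran from 2.95 to 6.17. AT3TE82555 led them with 143, 99 and 280 counts in ddcc and 1, 4 and 1 in wild type (log2 fold change 6.17, standard error 0.60, adjusted p in edgeR 3.97e-05). Next came AT3TE70590 with 57, 69 and 48 counts in ddcc and 4, 2 and 3 in wild type, a log2 fold change of 4.04 (standard error 0.34, adjusted p in edgeR 1.60e-05). AT3TE60310 had 77, 63 and 28 counts in ddcc and 4, 9 and 0 in wild type, so that ddcc replicate 3 lay nearest to the wild-type libraries. The fitted standard errors come from the test against no change and can be too small where wild type has few reads.

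Most of the 36 elements expressed in both genotypes were not called. Called higher were 8 of the 36 (22.2%) and lower 1 (2.78%). Among all features with at least 10 reads in every library 14.8% were called higher and 12.9% lower, and among 113 such TEs of the other chromosomes 18.6% and 8.85%. The median log2 fold change of the 36 was 0.22, within a range of −1.44 to 2.13, and that of the 27 elements not called was 0.15. Of those 27, 18 had a positive and 9 a negative log2 fold change.

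**Figure D3:**
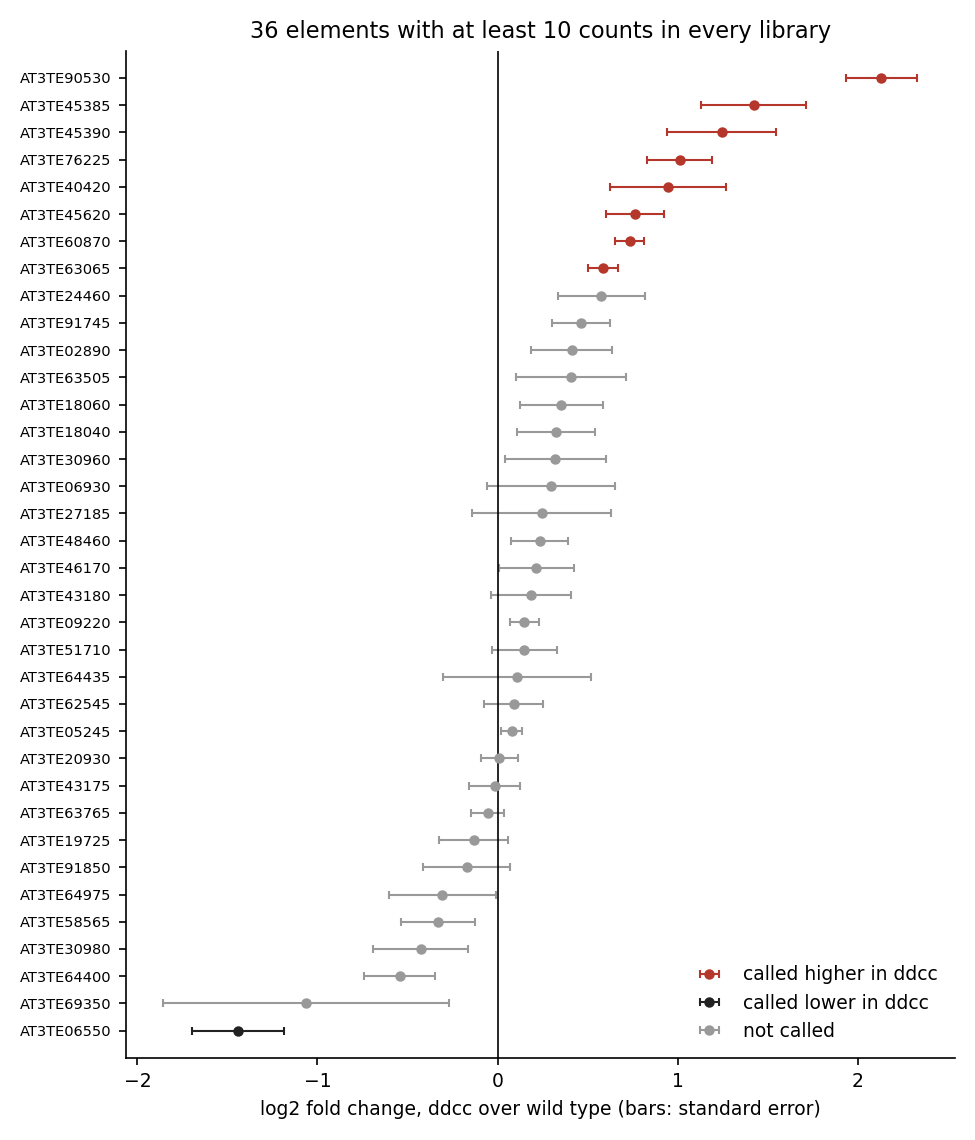
Each point is the log2 fold change of ddcc over wild type for 1 of the 36 elements with at least 10 reads in every library, and each bar is its standard error from the edgeR fit. The 8 elements called higher span 0.59 to 2.13, the 1 called lower stands at −1.44, and the 27 not called lie between −1.06 and 0.58.

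The largest change of this class was that of AT3TE90530, with 181, 235 and 162 counts in ddcc and 35, 43 and 38 in wild type. Its level was 10.5 ± 2.56 CPM in ddcc and 2.40 ± 0.316 CPM in wild type (SD, n = 3 each), a log2 fold change of 2.13 (standard error 0.20, adjusted p in edgeR 3.03e-05). No ddcc library of this element came near its wild-type range. AT3TE76225 had 427, 318 and 555 counts in ddcc against 181, 231 and 153 in wild type, a log2 fold change of 1.01 (standard error 0.18). AT3TE45620 had 133, 140 and 121 counts in ddcc against 78, 53 and 73 in wild type, with a log2 fold change of 0.76. AT3TE60870 had 338, 291 and 302 counts in ddcc against 176, 157 and 158 in wild type, and AT3TE63065 had 436, 365 and 446 in ddcc against 235, 254 and 238 in wild type. These changes of 0.73 (standard error 0.08) and 0.59 (standard error 0.08) were small but tight, with adjusted p-values of 9.11e-05 and 5.17e-04 in the edgeR fit. In all 5 elements every ddcc library exceeded every wild-type library.

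AT3TE45385, the element with the second highest mean level, was called higher with a wide wild-type spread. It had 5220, 4269 and 4963 counts in ddcc and 1456, 2541 and 760 in wild type, or 261 ± 14.6 CPM in ddcc and 97.1 ± 54.4 CPM in wild type (SD, n = 3 each). The log2 fold change was 1.42 (standard error 0.29, adjusted p in edgeR 0.00461), and robust dispersion estimation gave an adjusted p of 0.0957. Its listed neighbour AT3TE45390 had 335, 315 and 330 counts in ddcc and 98, 210 and 56 in wild type (log2 fold change 1.24, standard error 0.30, adjusted p in edgeR 0.0109). The pair moved together, and the count of AT3TE45390 divided by that of AT3TE45385 was 0.0642, 0.0738 and 0.0665 in ddcc and 0.0673, 0.0826 and 0.0737 in wild type.

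AT3TE40420 followed the same order of libraries in wild type, with 1840, 1424 and 1818 counts in ddcc and 687, 1298 and 337 in wild type. Divided by AT3TE45385 it gave 0.352, 0.334 and 0.366 in ddcc and 0.472, 0.511 and 0.443 in wild type, so the ratios of the genotypes did not overlap. It lies 525 listed places before AT3TE45385 in identifier order. Its log2 fold change was 0.95 (standard error 0.32, adjusted p in edgeR 0.0489), and the call was lost in 7 of the 14 alternative fits, DESeq2 among them with an adjusted p of 0.205. It was lost without ddcc replicate 1, ddcc replicate 3, wild-type replicate 1 or wild-type replicate 3, with adjusted p-values in edgeR of 0.0829, 0.114, 0.149 and 0.0789. AT3TE45390 lost its call in 3 of the 14 fits, those by DESeq2, with robust dispersion and without wild-type replicate 1.

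Other abundant elements did not pass the test. AT3TE05245 had 527, 484 and 534 counts in ddcc and 448, 437 and 400 in wild type, or 27.9 ± 0.582 CPM in ddcc and 26.4 ± 0.423 CPM in wild type (SD, n = 3 each), with a log2 fold change of 0.08 (standard error 0.06, adjusted p in edgeR 0.369). AT3TE63765 had 258, 242 and 258 counts in ddcc and 273, 210 and 209 in wild type, and AT3TE20930 had 202, 217 and 252 in ddcc against 198, 194 and 193 in wild type. Their log2 fold changes were −0.05 (standard error 0.09) and 0.01 (standard error 0.10), with adjusted p-values in edgeR of 0.700 and 0.957. These elements gave steady reads in all 6 libraries.

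Only 3 chromosome 3 elements were called lower, all at low counts. AT3TE63085, the lost element, had 1, 3 and 3 counts in ddcc and 20, 28 and 18 in wild type, at least 8.34-fold lower (adjusted p in edgeR 2.49e-04). It lies 4 listed places after AT3TE63065, which was called higher. Listed after it are the untested AT3TE63115, with 0, 0 and 0 counts in ddcc and 6, 1 and 4 in wild type, and AT3TE63130. The latter had 1, 0 and 0 counts in ddcc and 4, 8 and 6 in wild type. Without the filter both were called lower. From AT3TE61530 to AT3TE63565 that fit called 11 of 58 elements higher and 3 lower (12.7% and 9.07% of all features). AT3TE43615 had 3, 7 and 9 counts in ddcc and 24, 25 and 16 in wild type, and its level fell by 1.94 on the log2 scale (standard error 0.38, adjusted p in edgeR 0.00334). The element listed just before it, AT3TE43610, was not tested and had 3, 3 and 6 counts in ddcc and 24, 9 and 6 in wild type. AT3TE06550 had 14, 17 and 15 counts in ddcc and 36, 31 and 43 in wild type, a log2 fold change of −1.44 (standard error 0.25, adjusted p in edgeR 0.00195). Without ddcc replicate 1, 51 elements were called higher (13.5% of features) and 5 lower (10.1%), with AT3TE64400 and AT3TE69350 added to the 3.

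**Figure D4:**
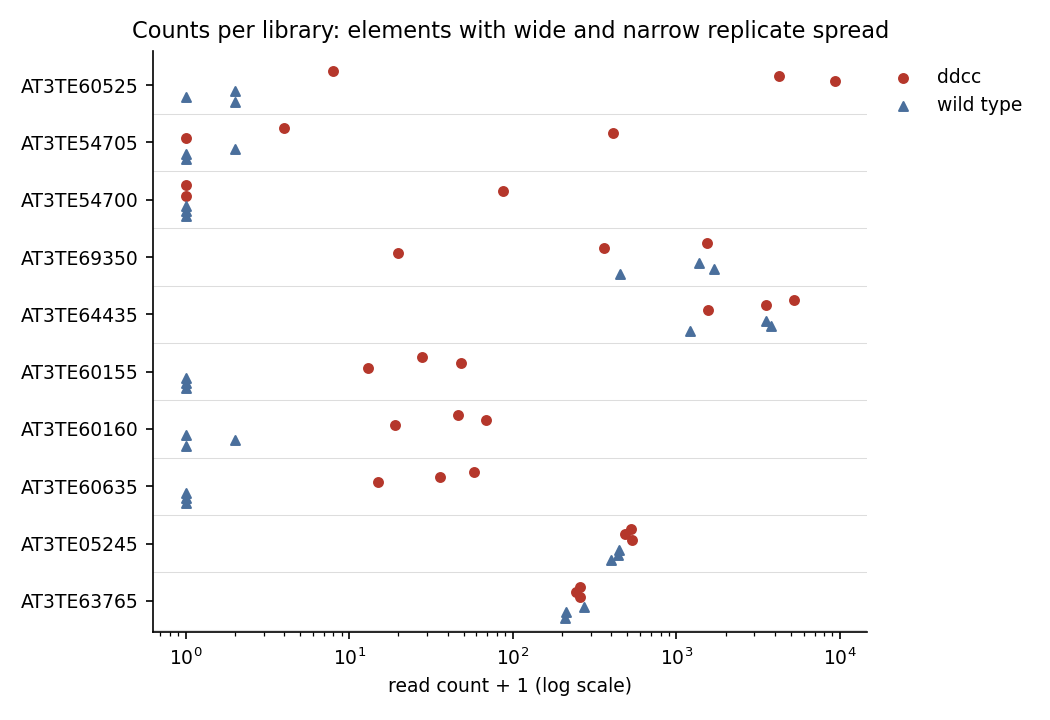
Points are read counts plus 1, on a log axis, per library for 8 elements with a wide spread between replicates and, in the bottom 2 rows, AT3TE05245 and AT3TE63765 with a narrow one. Circles are ddcc libraries and triangles wild-type libraries, and the ddcc circles of AT3TE60525 run from 7 to 9288 counts.

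Replicates differed widely at some elements. AT3TE60525 had 7, 4252 and 9288 counts in ddcc and 1, 0 and 1 in wild type. It was therefore near absent from ddcc replicate 1, yet it was the most abundant chromosome 3 element in ddcc replicate 3, with 34.5% of the reads on these elements. Its mean of 247 ± 248 CPM in ddcc (SD, n = 3) had an SD as large as itself, against 0.0413 ± 0.0360 CPM in wild type. It failed the filter because of replicate 1, and in the edgeR fit without a filter its adjusted p was 4.44e-06. AT3TE54705 had 3, 406 and 0 counts in ddcc and 1, 0 and 0 in wild type, and its listed neighbour AT3TE54700 had 0, 86 and 0 in ddcc against 0, 0 and 0 in wild type. Both were thus seen almost only in ddcc replicate 2. These elements were singled out after their values were seen. In all, 6 untested elements, these included, had at least 20 reads in some ddcc library and at most 3 in every wild-type library. The opposite pattern was shown by 0. The same counts among other features are not given here, so these numbers describe no trait particular to chromosome 3 elements.

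Spread also marked elements expressed in both genotypes. AT3TE69350 had 1543, 362 and 19 counts in ddcc and 1374, 1692 and 449 in wild type, a coefficient of variation of 121% in ddcc and 53.5% in wild type. Its log2 fold change of −1.06 (standard error 0.79) had an adjusted p in edgeR of 0.353, and without ddcc replicate 1 it was −2.74 with an adjusted p of 0.0166. AT3TE64435, the element with the highest mean level, had 5257, 3525 and 1554 counts in ddcc and 3531, 3787 and 1202 in wild type. Replicate 3 was lowest in both genotypes, and the log2 fold change was 0.11 (standard error 0.41, adjusted p in edgeR 0.873).

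The median spread of these elements was above that of all tested features, a difference that was not tested. Over the 36 elements expressed in both genotypes the median coefficient of variation was 12.2% in ddcc and 17.98% in wild type. Over all tested features with at least 10 reads in every library of the genotype it was 7.31% in ddcc and 7.07% in wild type. The features were not matched to the elements in read count. The 38 gained elements had a median of 24.5% in ddcc, within a range of 2.48% to 65.5%. Of the elements called higher, AT3TE60155, AT3TE60160 and AT3TE60635 varied most, with 27, 47 and 12 counts, 45, 68 and 18 counts, and 57, 35 and 14 counts in ddcc. Replicate 3 was lowest in each. AT3TE60155 and AT3TE60160 are adjacent in the list, and the count of the second divided by that of the first was 1.67, 1.45 and 1.50 in the ddcc libraries.

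Position was described by splitting the listed elements, in identifier order, into 10 segments of 646 or 647 elements. In segment 1, from AT3TE00010 to AT3TE32165, a mean of 35 ± 2 elements had a read in ddcc and 31.7 ± 3.06 in wild type (SD, n = 3 each), a ratio of 1.11. In segment 5, from AT3TE50820 to AT3TE54405, the means were 40.7 ± 4.51 in ddcc and 6.67 ± 2.52 in wild type, a ratio of 6.10. Segments 6 and 7, up to AT3TE61525, had ratios of 5.64 and 4.57, and segment 10, from AT3TE73235 to AT3TE95460, had 1.34. Detection in wild type was thus lowest in the middle of the identifier order, while detection in ddcc was lowest in segments 2 and 6, at means of 22.7 and 20.7 elements. In 8 of the 10 segments every ddcc library exceeded every wild-type library. Each of these gave an exact permutation p of 0.1, or 0.125 after Benjamini-Hochberg adjustment over the 10 comparisons, and segments 1 and 10 gave 0.3.

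**Figure D5:**
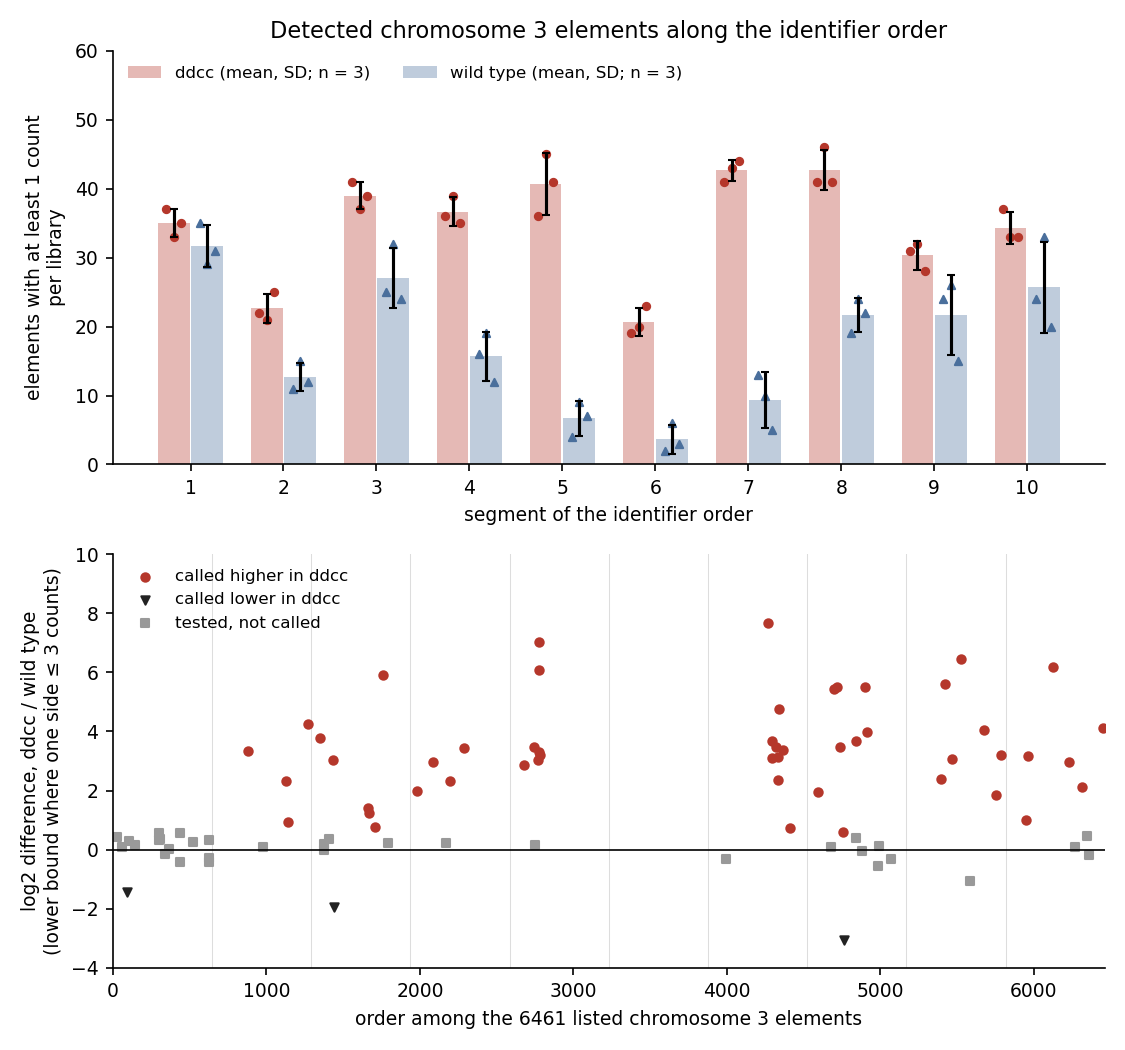
The upper panel gives the number of elements with at least 1 read per library in each of 10 segments of the identifier order, with bars for the mean, error bars for the SD (n = 3) and points for libraries, ddcc left of wild type. The lower panel gives the log2 difference of the 87 tested elements in the same order, with grey lines at the segment borders. Wild-type bars are lowest in segments 5 to 7, and no tested element of segment 1 was called higher.

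The part of detected elements that lies in segments 5 to 7 was compared per library, a choice made after the segment values were seen. These segments hold 1938 of the 6461 listed elements (29.995%). They held 28.2%, 30.9% and 31.4% of the detected elements in ddcc and 10.98%, 12.3% and 9.93% in wild type. The genotypes did not overlap, with means of 30.2% ± 1.76 in ddcc and 11.1% ± 1.19 in wild type (SD, n = 3 each) and an exact permutation p of 0.1. With at least 10 reads required, the means were 24.4% ± 0.493 in ddcc and 7.32% ± 0.179 in wild type. Only 42, 41 and 40 elements reached 10 reads in the wild-type libraries. The wild-type share thus rests on very few elements, and its small SD is no measure of precision.

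With the filter, elements called higher were spread over the identifier order from AT3TE35825 to AT3TE94580. Before AT3TE35825 lie 876 listed elements (13.6%), of which 69 were detected, 16 tested, 0 called higher and 1 called lower. Over all tested features 15.5% were called higher and 12.7% lower. The border is the first element called higher, so 0 called higher in this stretch was fixed by that choice. At an unadjusted p under 0.05 edgeR gave 1 higher element there, AT3TE24460 (log2 fold change 0.58, adjusted p 0.0982). Without the filter 2 of the 69 were called higher, and 12.7% of all features were. These elements were AT3TE20780 and AT3TE21700. The first had 14, 7 and 4 counts in ddcc and none in wild type. The second had 16, 6 and 11 in ddcc and 3, 0 and 1 in wild type. That stretch held 13 of the 36 elements expressed in both genotypes. Of the 38 gained elements, 20 (52.6%) lay in segments 4 to 7, which held 4 of the 36 expressed in both (11.1%). These segments hold 2584 of the 6461 listed elements. This block was not set in advance, and its shares were not tested. Called elements per listed element peaked in segment 7 at 1.39%, where 9 of 646 were called higher, against 0.789% of all listed chromosome 3 elements. This segment was picked as the highest of 10 after the values were seen. The difference was not tested, and neighbours need not be independent.

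With 20 segments, 7 of 323 listed elements were called higher from AT3TE50820 to AT3TE52625, 9 of 323 (2.79%) from AT3TE59655 to AT3TE61525, and 6 of 323, with 1 lower, from AT3TE61530 to AT3TE63565. Between the stretches that begin at AT3TE50820 and AT3TE59655, from AT3TE52630 to AT3TE59650, lie 1292 listed elements, of which 1 passed the filter and 0 were called. The tested one, AT3TE58565, had 35, 26 and 35 counts in ddcc and 42, 31 and 33 in wild type (edgeR p 0.139 unadjusted, 0.263 adjusted). Of the listed elements there, 85 were detected in ddcc and 18 in wild type, but reads were few. In its segments, in identifier order, the mean summed counts were 43.3, 205, 13.7 and 74.7 in ddcc. In wild type they were 1.67, 5.33, 1.67 and 39.3. The 205 includes AT3TE54705 with 3, 406 and 0 counts in ddcc and AT3TE54700 with 0, 86 and 0. That 0 elements were called holds only under the filter. Without the filter 11 of 91 elements were called higher in this stretch, and 12.7% of all features were. Among the 11 was AT3TE54330 with 38, 17 and 8 counts in ddcc and none in wild type. The same fit called 16 of 46 higher in the stretch from AT3TE50820. It called 14 of 38 in that from AT3TE59655 and 11 of 58 in that from AT3TE61530. Whether calls cluster was not tested, and the borders were chosen after the values were seen.

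Neighbouring elements were called together in 4 pairs. These were AT3TE45385 with AT3TE45390, AT3TE51895 with AT3TE51900, AT3TE60155 with AT3TE60160, and AT3TE60425 with AT3TE60430, so 8 of the 54 called elements had a called neighbour. The same share among other features is not given here. A stretch of 11 listed elements from AT3TE51880 to AT3TE51930 was looked at after its values were seen. In it 10 elements were detected and 5 were called higher, and 15.5% of all tested features were. All 5 had 0 counts in every wild-type library. They passed the filter only through their ddcc counts, so their higher ddcc level was set by the filter. Beside AT3TE51895 and AT3TE51900 these were AT3TE51880 with 27, 21 and 36 counts in ddcc, AT3TE51910 with 39, 38 and 25, and AT3TE51930 with 30, 39 and 24. The count of AT3TE51900 divided by that of AT3TE51895 was 0.478, 0.570 and 0.490 in the ddcc libraries. Whether such neighbours lie in 1 transcript was not tested.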

How the data were processed

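The deposited values are whole-number counts for genes and TEs, which the authors left unnormalized. The submitters' processing notes name Trim Galore 0.6.0, cutadapt 1.15, STAR 2.7.0f and the build TAIR10. Which program counted reads, whether strand was used and how multiply matching reads were treated is not given in the sources used here. TE coordinates, families and sequences were not used here; a second file, with batches of other libraries, was not used either. Columns of per-sample values without a library numbered 0.

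R 4.3.3 and edgeR 4.0.16 were used. After filterByExpr (minimum count 10) and TMM scaling, 1 quasi-likelihood model with a genotype term covered all 18498 features, whose p-values were adjusted by Benjamini-Hochberg. The biological coefficient of variation was 7.61%. The fit was tested on simulated data. CPM used TMM-scaled totals of tested features. A standard error is the size of the log2 fold change divided by the root of its F value. Lower bounds set a genotype with at most 3 counts per library to 3. Values per library were compared with exact permutation tests. No replicate pair was within sampling noise (chi-square over degrees of freedom 3.32 to 7.65).

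The members and lists were chosen with earlier results of these data known. Named elements were the 12 largest increases without overlap, all 3 decreases, the 8 highest mean levels, the 5 highest levels not called, the 3 called higher with the largest ddcc coefficient of variation, members of runs of at least 3 called neighbours (0 were found), and the first and last identifiers, which had no counts. Other elements in the text were chosen after their values were seen. Alternatives were other scalings and filters, DESeq2 1.42.0, robust dispersion, a replicate block, leaving out each library, other thresholds, count limits and segments.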

Additional observations from a re-analysis of the deposited data

How the results depend on the processing

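Of the 51 elements called higher, 48 kept their call in each of the 14 alternative fits that tested them, the exceptions being AT3TE40420, AT3TE45385 and AT3TE45390. The filter moved the numbers most. Without one, 107 elements were called higher and 8 lower; a minimum mean of 50 counts left 18 higher and 0 lower, the 3 lower elements then being untested. DESeq2 gave 49 and 3 (12.9% and 9.26% of all features), library totals alone 52 and 3 (18.3% and 10.5%), and leaving out each library in turn 51 to 58 higher (12.2% to 15.7%) and 3 to 5 lower (8.70% to 12.6%). No filter also called AT3TE54700, which had reads in 1 library. Same-numbered libraries did not deviate together (correlations of −0.13, −0.07 and 0.05), and the replicate block gave 52 elements higher and 3 lower (14.8% and 11.8% of features). With limits of 20 and 3 counts 23 elements were gained and 0 lost, and with limits of 5 and 1 counts 50 were gained and 0 lost. Shares among other features are not given here for these limits, so these numbers show only how the class sizes moved. The highest share called in a segment was 2.79% with 20 segments and 1.39% with 10. With 10 segments of equal identifier width it was 1.26%, from AT3TE66830 to AT3TE76360, so the place of the peak depended on the scheme.

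The difference in the share of TE counts on chromosome 3 turned to −2.92 percentage points without AT3TE60525, a setting added after seeing the data, and leaving out each library, also added then, gave −2.62 to 5.05. Signs also turned at elements not called. On the log2 scale, leaving out each library gave −0.28 to 0.46 for AT3TE64435 (negative without ddcc replicate 1 or wild-type replicate 3), −0.12 to 0.045 for AT3TE63765 (positive without wild-type replicate 1) and −0.073 to 0.10 for AT3TE20930, whose value was −0.0014 under the minimum mean of 50. The cause of these turns was not tested.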
